A study of Mus musculus with 20 samples.

Results

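The 10 genes described here concern the luminal mammary epithelium. Esr1, Pgr and Prlr are hormone receptors, and Stat5a, Stat5b, Gata3, Foxa1 and Elf5 are transcription factors. Greb1 is an estrogen receptor target, and Kit is the receptor of stem cell factor. All 10 genes were taken by gene name, and each matched 1 of the 43346 rows of the count table. RNA sequencing was done on 20 breast tumors from 20 female F1 mice of the cross [BALB/c-neuT x FVB/J], with 1 tumor per mouse. The sires carried a single neuT transgene allele (an activated rat Her2/neu oncogene, driven in this line by the mammary tumor virus promoter), the dams were wild-type FVB/J, and no treatment is named in the labels. All tumors carried the oncogene and arose spontaneously, no normal gland was measured, and the labels give neither ages nor stage of the estrous cycle. Each tumor was sampled as a small frozen piece taken after any tumor of the mouse had reached a size limit. The sample titles sort the tumors into Lo (n = 9) and Hi (n = 11). What the words stand for is not said in the labels, so they were used as names of groups only.

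Total counts ran from 38765682 to 65465755 per tumor (median 49881779), of which 6.29% to 27.7% fell on the ribosomal RNA locus (Yam1 and AY036118). Of all rows, 18883 had enough counts to be tested, and all 10 genes were among them. The tissue label was checked against marker genes. The summed level of 8 epithelial markers, Epcam and keratins among them, ran from 2745 to 4439 CPM (counts scaled to the effective size of the library, with no correction for gene length) over the tumors, and that of 7 myoepithelial markers from 32.7 to 85.7 CPM. The 6 fibroblast markers (Col1a1, Col3a1 and others) summed to 600.3 to 2267 CPM, and 4 pan-leukocyte genes to 59.7 to 104 CPM. Epithelial markers were thus high in every tumor, and stromal markers were present in all of them at levels that differed. In such bulk samples, fewer cells of a type and less RNA per cell cannot be told apart.

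Estrogen receptor alpha (Esr1) and the progesterone receptor (Pgr) are ligand-activated transcription factors that mark the hormone-sensing luminal cells of the mammary gland, and Foxa1 is the pioneer factor that opens chromatin for the estrogen receptor there. Prolactin acts through its receptor (Prlr) and the kinase Jak2 on Stat5a and Stat5b, which enter the nucleus and switch on milk protein genes. Gata3 maintains the luminal state in both lineages, whereas Elf5, a factor of the ETS family, and the stem cell factor receptor Kit mark luminal progenitors and the secretory, alveolar lineage.

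To show which regulatory letters lie next to these genes, the 250 bases before each annotated start site were read from RefSeq (GRCm38.p6, the assembly of mm10), where all 10 genes had at least 1 window and 18 windows in all. They were searched on both strands for the palindromic estrogen and progesterone response elements and for the letters of a STAT5 site (TTCNNNGAA). The search also took in a forkhead site, spelled TGTTTAC. A site of the GATA family was spelled AGATAA. For the ETS family the letters searched were CCGGAAG. The last motif was a TATA box, which was spelled TATAAA. Matches were found in 4 windows, which are printed 5′ to 3′ in the direction of the gene without the bases that an annotated exon overlaps. Capitals mark the matched letters. No match overlapped another.
Esr1, chr10:4709908-4710154, plus strand: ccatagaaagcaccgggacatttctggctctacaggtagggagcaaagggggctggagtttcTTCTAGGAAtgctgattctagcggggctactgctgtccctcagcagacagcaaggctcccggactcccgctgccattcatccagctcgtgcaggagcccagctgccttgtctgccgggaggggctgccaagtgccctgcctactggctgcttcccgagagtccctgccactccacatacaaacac
Pgr, chr9:8899583-8899832, plus strand: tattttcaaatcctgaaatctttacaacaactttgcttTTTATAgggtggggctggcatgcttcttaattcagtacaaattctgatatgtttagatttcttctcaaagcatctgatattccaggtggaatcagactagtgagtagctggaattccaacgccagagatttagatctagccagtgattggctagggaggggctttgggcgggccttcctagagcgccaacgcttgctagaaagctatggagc
Prlr, chr15:10223656-10223905, plus strand: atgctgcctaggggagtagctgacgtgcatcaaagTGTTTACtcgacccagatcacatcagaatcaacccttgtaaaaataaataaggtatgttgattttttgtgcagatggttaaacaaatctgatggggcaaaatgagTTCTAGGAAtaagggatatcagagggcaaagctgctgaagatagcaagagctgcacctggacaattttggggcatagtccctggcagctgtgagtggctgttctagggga
Foxa1, chr12:57546122-57546361, minus strand: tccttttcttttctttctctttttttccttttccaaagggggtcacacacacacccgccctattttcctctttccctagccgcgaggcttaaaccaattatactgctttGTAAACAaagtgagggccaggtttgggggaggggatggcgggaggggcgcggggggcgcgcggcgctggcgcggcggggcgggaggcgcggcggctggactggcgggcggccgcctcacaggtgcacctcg

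The window of the downstream Esr1 start held a STAT5 site whose first base lay 188 bases before the start. The window of a downstream Prlr start held both a STAT5 site (110 bases before the start) and a forkhead site (215 bases before it). The Foxa1 window held a forkhead site on the other strand, 141 bases before the start, and the Pgr window a TATA box on the other strand, 212 bases before the start. The Foxa1 window lay inside the gene as GENCODE M21 annotates it, which reaches to base 57546916. Among 32851 windows of the same length, 7.02% held the STAT5 letters, 3.17% the forkhead letters and 12.4% the TATA letters. The estrogen and progesterone response elements were in 0.0639% and 0.0396% of all windows and in none of the 18 windows here, and the GATA letters (9.99% of all windows) and ETS letters (6.91%) were also not met in these 18 windows. A match is a run of letters and not a binding site.

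The next question was at what level the tumors expressed each gene. Kit, Elf5, Gata3, Stat5b, Prlr and Stat5a were expressed in every tumor at 3.90 RPKM or more. Esr1 was low in every tumor, and Foxa1, Pgr and Greb1 had lower means still, with median counts of 20, 27.5 and 14 and with 3, 2 and 0 tumors at 3 or fewer counts. Levels are given as RPKM, the counts scaled to the length of the gene model and to the TMM effective size of the library.

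Among the steroid receptors, Esr1 (ENSMUSG00000019768; mm10 chr10:4611593-5005614) had 219 to 1064 counts and a mean of 0.730 ± 0.267 RPKM (SD, n = 20). Its level ran from 0.312 over a median of 0.638 to 0.992 RPKM in the Lo tumors, and from 0.436 over 0.682 to 1.47 RPKM in the Hi tumors. The groups overlapped throughout, with tumor 4 (Lo) the lowest and tumor 22 (Hi) the highest. Pgr (ENSMUSG00000031870; chr9:8899833-8968611) reached 0.110 ± 0.146 RPKM (SD, n = 20) from 2 to 288 counts. In the Lo tumors the lowest, median and highest levels were 0.00442, 0.0663 and 0.638 RPKM, and in the Hi tumors 0.00332, 0.0755 and 0.295 RPKM. Tumor 17 stood at 9.004 times the median of the 20 tumors, whereas tumors 2 and 11 had 2 counts each. Greb1 (ENSMUSG00000036523; chr12:16670615-16800886), an estrogen receptor target that also binds the receptor, was the lowest of the 10 genes, with 0.0539 ± 0.0569 RPKM (SD, n = 20) from 4 to 82 counts. It ran from 0.0138 over 0.0270 to 0.244 RPKM in the Lo tumors and from 0.00789 over 0.0277 to 0.124 RPKM in the Hi tumors, so that both medians were nearly alike and tumor 1 (Lo) alone reached 8.92 times the overall median.

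In the prolactin pathway, Prlr (ENSMUSG00000005268; chr15:10177238-10349180) had a mean of 6.13 ± 1.16 RPKM (SD, n = 20). The Lo tumors ran from 4.73 over 6.04 to 8.45 RPKM and the Hi tumors from 4.10 over 6.55 to 7.85 RPKM, with tumor 17 the highest and tumor 19 the lowest. Stat5a (ENSMUSG00000004043; chr11:100859351-100885169) had 6.13 ± 1.32 RPKM (SD, n = 20), with 4.604, 6.42 and 7.81 RPKM as the lowest, median and highest Lo tumor and 3.90, 6.03 and 8.98 RPKM among the Hi tumors. Stat5b (ENSMUSG00000020919; chr11:100780731-100850724), its neighbor on the chromosome and closest paralog, had 11.2 ± 1.51 RPKM (SD, n = 20). Its Lo tumors ran from 9.05 over 11.3 to 13.5 RPKM and its Hi tumors from 8.14 over 11.1 to 14.8 RPKM. Tumor 19 was the highest in both Stat5 genes. Stat5b was above Prlr in all 20 tumors in RPKM, which rests on gene lengths of 5539 and 15339 bases. With no length correction, Prlr had the higher means, 94.7 CPM (Lo) and 93.6 CPM (Hi), beside 63.6 and 60.5 CPM for Stat5b.

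Of the luminal transcription factors, Gata3 (ENSMUSG00000015619; chr2:9857078-9890034) had 17.9 ± 2.57 RPKM (SD, n = 20). Its lowest, median and highest levels were 15.3, 18.7 and 20.96 RPKM in the Lo tumors and 13.7, 17.5 and 24.4 RPKM in the Hi tumors, again with tumor 19 the highest. Foxa1 (ENSMUSG00000035451; chr12:57540631-57546121) had only 0.210 ± 0.252 RPKM (SD, n = 20). The Lo tumors ran from 0.0268 over 0.120 to 1.07 RPKM and the Hi tumors from 0 over 0.131 to 0.494 RPKM. Tumors 19 and 22 had 0 counts, which allows a level of up to 0.0183 and 0.0178 RPKM (3 counts per library, counting error only). Tumor 17 was thus at least 58.5-fold higher than tumor 19 and at least 60.2-fold higher than tumor 22. Elf5 (ENSMUSG00000027186; chr2:103411688-103450989) had 21.9 ± 3.69 RPKM (SD, n = 20), with 17.8, 23.8 and 27.9 RPKM in the Lo tumors and 16.5, 19.4 and 30.9 RPKM in the Hi tumors as lowest, median and highest. Tumor 21 was the highest. Kit (ENSMUSG00000005672; chr5:75574916-75656722), the most abundant, had 64.9 ± 9.02 RPKM (SD, n = 20), from 51.8 over 66.8 to 74.2 RPKM in the Lo tumors and from 52.1 over 67.4 to 83.2 RPKM in the Hi tumors. Its mean level exceeded that of 96.6% of all genes tested.

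**Figure D1:**
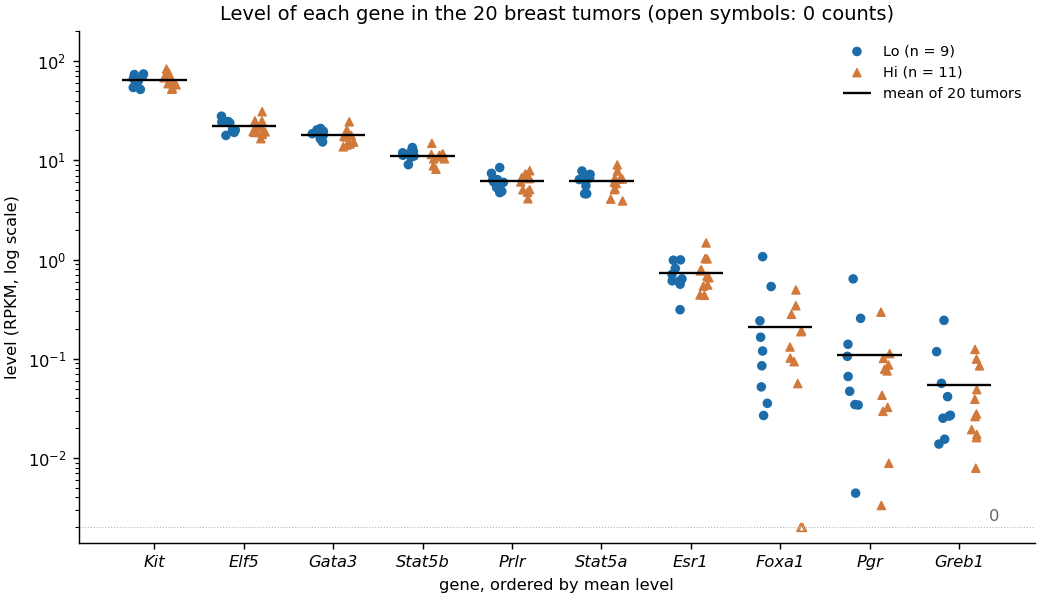
Level of each gene in RPKM on a log scale for the Lo tumors (circles, n = 9) and the Hi tumors (triangles, n = 11), with the mean of all tumors as a bar and 0 drawn as open symbols at the bottom. The 6 genes from Kit to Stat5a lie in tight groups between 3.90 and 83.2 RPKM, whereas Foxa1, Pgr and Greb1 are spread over a wide range up to 1.07 RPKM.

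Ordered by mean level, Kit exceeded Elf5 in 20 of 20 tumors, and their ranges did not overlap. Elf5 exceeded Gata3 in 17 tumors, and Gata3 exceeded Stat5b in 20. Prlr and Stat5a could not be ordered in RPKM, since Prlr was the higher in 11 of 20 tumors and both means were 6.13 RPKM. Such an order depends on the gene length used, 15339 bases for Prlr and 7133 for Stat5a. With no length correction, the means of Prlr were 94.7 CPM (Lo) and 93.6 CPM (Hi). Those of Stat5a were 44.6 and 43.0 CPM. Stat5a exceeded Esr1 in 20 tumors with no overlap of the ranges. Below it, Esr1 was above Foxa1 in 19 tumors, Foxa1 above Pgr in 17 and Pgr above Greb1 in 14.

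Spread between tumors was compared with that of all genes tested on the log2 CPM scale, where the median gene had an SD of 0.25. Foxa1 (SD 1.68), Pgr (1.61) and Greb1 (1.14) were more variable than 99.6%, 99.6% and 98.8% of genes, but they also had few counts, which adds sampling error. Esr1 (0.51) was at the percentile 81.0. The other genes ran from Stat5b (0.20, percentile 35.5) to Stat5a (0.32, percentile 62.1). Kit, Gata3, Stat5b and Elf5 were thus less variable than the median gene. They also had many counts (medians from 3187.5 for Stat5b to 18971 for Kit), so sampling error adds little. The comparison was not matched for level.

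**Figure D2:**
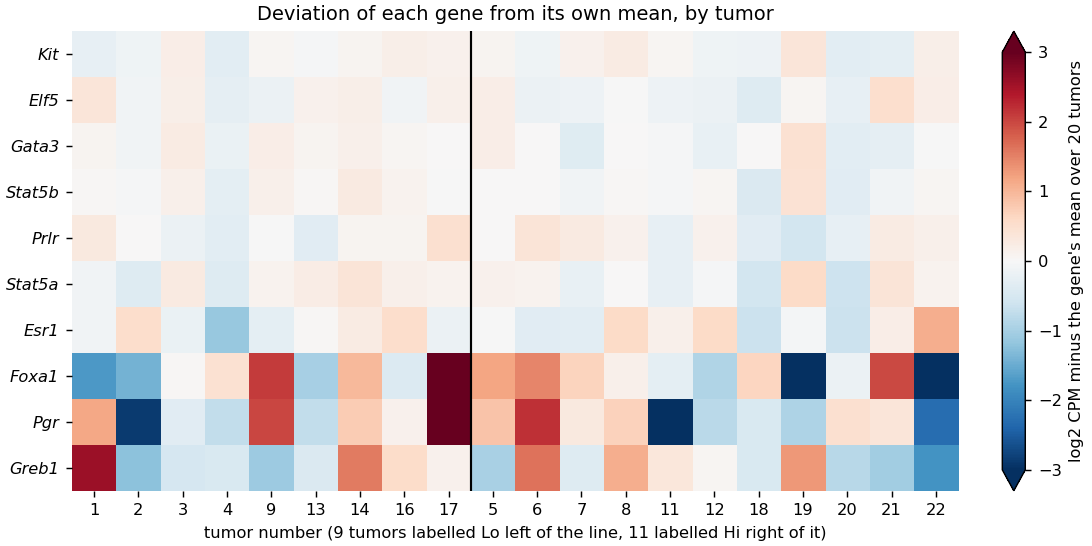
Deviation of each gene (rows) from its own mean in log2 CPM for each tumor (columns), with the Lo tumors left and the Hi tumors right of the line; colors end at 3 in either direction. Foxa1, Pgr and Greb1 carry nearly all of the strong colors, and tumor 17 is high for both Foxa1 and Pgr.

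Whether the 2 groups named in the titles differed was tested with edgeR. None of the 10 genes passed an adjusted p of 0.05, and neither did any other gene (0.0% of 18883 called). At an unadjusted p under 0.05 there were 1045 genes, and DESeq2 called 1. The smallest unadjusted p of the 10 genes was 0.173, for Pgr. Pgr had a mean of 1.26 ± 1.70 CPM in the Lo tumors (SD, n = 9) and 0.673 ± 0.688 CPM in the Hi tumors (SD, n = 11). Its log2 fold change of Lo over Hi was 0.92 (SE 0.650), with a 95% interval from -0.45 to 2.28, and it was 0.13 without tumor 17. Foxa1 (0.61, interval from -0.79 to 2.01) and Greb1 (0.41, interval from -0.71 to 1.54) were as loosely bounded, and without tumor 17 the Foxa1 value turned to -0.10. The bounds were closer for Esr1 (-0.14, interval from -0.59 to 0.31), and closer still for Prlr, Stat5a, Stat5b, Gata3, Elf5 and Kit, whose values lay between -0.02 and 0.09. For Kit the interval ran from -0.21 to 0.17 and for Stat5b from -0.11 to 0.25. The ranges of the 2 groups overlapped for all 10 genes.

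**Figure D3:**
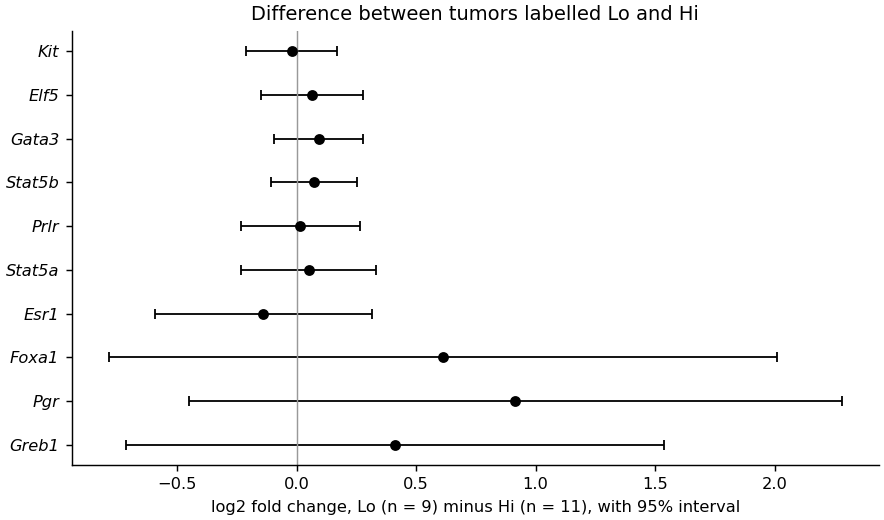
Log2 fold change of Lo (n = 9) over Hi (n = 11) for each gene, with the 95% interval of the edgeR fit as bars. All intervals include 0, and those of Foxa1, Pgr and Greb1 are the widest.

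Next, the covariation of the genes across the 20 tumors was examined. The counts of every gene were fitted to the log2 CPM of each of the 10 genes in turn, with p adjusted over all genes, and a pair was called when the fits from both sides passed. Of the 45 pairs, 2 were called, Stat5a with Stat5b and Stat5b with Gata3. The share of all genes called was 2.17% in the fit on Stat5a, 1.3% on Stat5b and 0.842% on Gata3. Without tumor 19 the genes called as rising and falling were 64 and 10 along Stat5a (350 and 59 with it), 3 and 3 along Stat5b (174 and 71) and 4 and 8 along Gata3 (82 and 77). By direction, genes rising and falling with the covariate were 1.85% and 0.312% of all genes for Stat5a, 0.922% and 0.376% for Stat5b, and 0.434% and 0.408% for Gata3. They were 0.244% and 0.0265% for Elf5, 0.408% and 0.122% for Kit, and 0.18% and 0.0265% for Prlr (0.207% in all). Along Greb1 0.0265% of all genes were called, all of them rising. DESeq2 called more of all genes than edgeR in each of the 10 fits. Its rising and falling calls were 593 and 165 along Stat5a, 402 and 216 along Stat5b, and 279 and 291 along Gata3. They were 297 and 122 along Kit, 132 and 38 along Elf5, 10 and 0 along Pgr, and 13 and 1 along Foxa1.

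Stat5a and Stat5b had a Pearson's r of 0.841 (permutation p = 1e-05, the smallest 100000 permutations can give) and a Spearman's rho of 0.689 (permutation p = 0.00096). Per log2 unit of Stat5a, Stat5b changed by 0.52 log2 units (SE 0.0853), with an edgeR adjusted p of 0.00537, and 0.00650 from the other side. Within the Lo tumors r was 0.831 and within the Hi tumors 0.846, and without the tumors farthest from the Stat5a median (18 and 20) it was 0.737. Tumor 19 was high and tumors 18 and 20 were low in both genes. In the fit without tumor 19 the pair was no longer called, although r was still 0.801. The pair adjoins on chromosome 11, where the median level of 985 other genes followed neither gene across tumors (r = -0.0451 with Stat5a and -0.222 with Stat5b). As paralogs they also share sequence: of the 100-base words, the length to which the reads were trimmed, in the annotated Stat5a transcripts, 3.44% also occur in Stat5b transcripts, and 4.79% the other way. How reads from such stretches were assigned is not given in the sources used here, so a part of the counts of both genes is uncertain. Stat5a also overlaps Stat3 (at most 17946 counts), which lies on the opposite strand.

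Stat5b and Gata3 had an r of 0.693 (permutation p = 0.00081) and a rho of 0.693 (permutation p = 0.00107), and the edgeR adjusted p was 0.0445 and 0.0483 from the 2 sides. r was 0.884 within the Lo tumors, 0.610 within the Hi tumors and 0.756 without the tumors farthest from the Stat5b median (18 and 19). Without tumor 19 alone it was 0.580. This call was close to the threshold and was lost without tumor 17, 19, 21 or 22. Another 3 annotated transcripts overlap Gata3 (Gm13256, 4930412O13Rik and 9230102O04Rik, with at most 325, 712 and 436 counts), and whether the counting used strand is not given in the sources used here.

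Stat5a and Gata3 had an r of 0.602 (permutation p = 0.00517), and this pair was not called (edgeR adjusted p 0.0747 and 0.110). No pair of Kit was called by edgeR over all tumors either. Its r was 0.695 with Stat5b (permutation p = 0.00041, edgeR adjusted p 0.0506 and 0.0683), 0.605 with Gata3 (permutation p = 0.00470) and 0.559 with Stat5a (permutation p = 0.0107). Tumor 19 was the highest in Kit, Gata3, Stat5a and Stat5b. Without it the r of Kit was 0.612 with Stat5b, 0.491 with Gata3 and 0.459 with Stat5a. That of Stat5a with Gata3 was then 0.488. Elf5 and Stat5a had an r of 0.657 (permutation p = 0.00178), where the edgeR adjusted p was 0.0479 from 1 side and 0.121 from the other. DESeq2 called Stat5b with Kit and Stat5a with Elf5. The edgeR fits without tumor 21 called Stat5a with Gata3 and with Kit, and those without tumor 1 called Stat5a with Elf5. Prlr, the receptor upstream of the Stat5 proteins, had an r of 0.128 with Stat5a and 0.0720 with Stat5b. Without tumor 19, the lowest in Prlr and the highest in both Stat5 genes, these were 0.413 and 0.405.

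Of the low genes, Pgr and Foxa1 had an r of 0.682 (permutation p = 0.00092) and a rho of 0.693 (permutation p = 0.000900), with 0.737 within the Lo and 0.635 within the Hi tumors, and the pair was not called (edgeR adjusted p 0.223 and 0.107). DESeq2 called it. Tumors 17 and 9 were high in both genes and tumors 2 and 22 low in both. Without tumor 17 r was 0.599. Pgr and Prlr had an r of 0.531 (permutation p = 0.0159, edgeR adjusted p 0.0803 and 0.9997). Esr1 followed neither Pgr (r = -0.348) nor Foxa1 (r = -0.417) in the positive direction, and its r with Greb1 was -0.0505. Its highest value was with Stat5b (r = 0.496, permutation p = 0.0264, edgeR adjusted p 0.387 and 0.249).

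Over the 45 pairs, 33 had an r above 0 and the median was 0.223, where the median over all pairs of genes tested was -0.00406. An unadjusted permutation p under 0.05 was met by 10 pairs, of which the edgeR test called 2. The shares of all gene pairs with an r above 0 or with such a p were not computed, so both counts are description only. In the edgeR fits, an unadjusted p under 0.05 was met by 603 (Foxa1) to 2849 (Prlr) of all 18882 genes per fit.

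**Figure D4:**
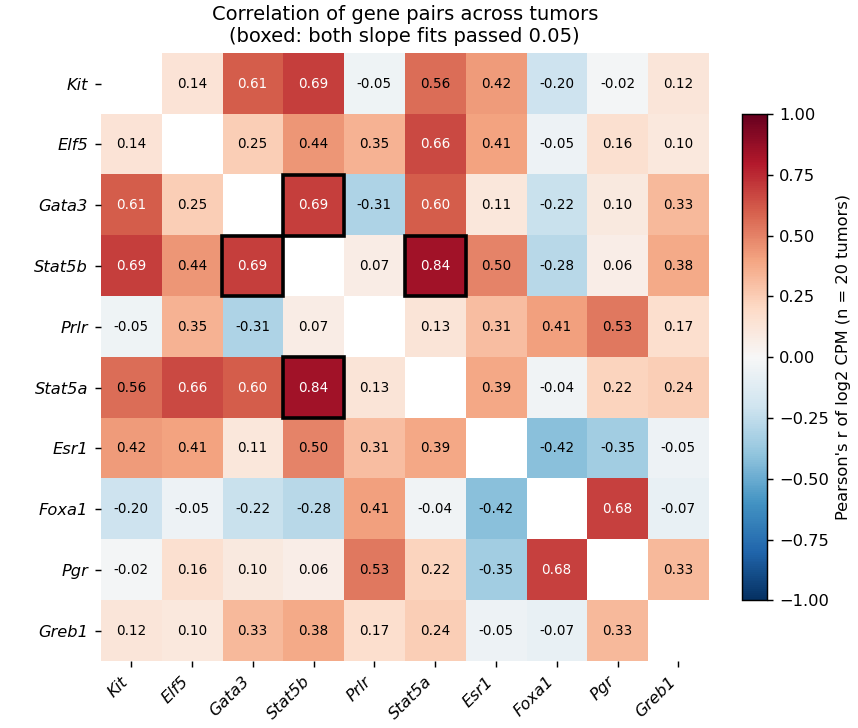
Pearson's r of log2 CPM over 20 tumors for each pair of genes, ordered by mean level; boxes mark the pairs for which both fits passed. The pairs among Stat5a, Stat5b, Gata3 and Kit have values from 0.56 to 0.84, and Pgr with Foxa1 has 0.68. Without tumor 19, the highest in Stat5a, Stat5b, Gata3 and Kit, the values among these genes ran from 0.46 to 0.80.

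The list of genes known to respond to prolactin and STAT5 was then followed along Prlr, Stat5a and Elf5. Of its 9 genes, 4 milk protein genes rose with Elf5 (0.27% of all genes called in that fit), 1 rose with Stat5a and none with Prlr. The median r of the list was 0.627 with Elf5, 0.443 with Stat5a and 0.0880 with Prlr, where that of all genes tested was 0.00774, -0.0157 and -0.0139. With Prlr, 1 of the 9 had an unadjusted p under 0.05, as did 2849 of all 18882 genes. Neither DESeq2 nor limma-trend called any of the 9 along Prlr.

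Csn2, which encodes beta-casein, ran from 49.2 over a median of 334.6 to 4123 CPM. Its slope was 4.85 log2 units per log2 unit of Elf5 (SE 0.926), with an edgeR adjusted p of 0.0250. Pearson's r was 0.684 (permutation p = 0.00081) and rho 0.722 (permutation p = 0.00059), with 0.341 within the Lo tumors, 0.809 within the Hi tumors and 0.671 without the tumors farthest from the Elf5 median. The other 3 were the caseins Csn1s1 (r = 0.683, edgeR adjusted p 0.0369) and Csn1s2a (r = 0.720, edgeR adjusted p 0.0234) and the whey acidic protein gene Wap (r = 0.646, edgeR adjusted p 0.0260). Tumor 21 was the highest in Elf5 and in all 4 genes. DESeq2 called these 4 genes too, whereas limma-trend called none of the 9 along Elf5. Their fits called 132 and 4 of all genes as rising, against 46 by edgeR. Without tumor 21 none of the 9 was called, and without tumor 22 Csn1s2a alone was. Elf5 also had an r of 0.508 with the epithelial marker score and 0.522 with the leukocyte score (the mean deviation of the markers in log2 CPM), and with either score as a term none of the 9 was called. Over all 18882 genes, those called as rising and falling along Elf5 were then 0 and 0 with the epithelial score. They were 10 and 0 with the leukocyte score (46 and 5 with neither). The slope of Csn2 was then 4.15 with the epithelial and 5.05 with the leukocyte score, that of Csn1s1 3.49 and 4.32, and that of Csn1s2a 4.39 and 5.23, beside 4.36 for Csn1s1 and 5.11 for Csn1s2a with neither. The part of either in the result was not tested beyond these fits.

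Lalba, the alpha-lactalbumin gene, rose with Stat5a (1.85% of all genes called in this direction). It ran from 28.5 over 103.8 to 261.2 CPM, with tumor 18 the lowest and tumor 19 the highest, as in Stat5b. Its slope was 2.22 log2 units per log2 unit of Stat5a (SE 0.293, edgeR adjusted p 0.000783), with r = 0.860 (permutation p = 1e-05) and rho = 0.878, 0.915 within the Lo and 0.836 within the Hi tumors, and 0.842 without the 2 farthest tumors. The call was kept without tumors 1, 17, 19, 21 or 22 taken singly and was lost with the leukocyte score as a term (edgeR adjusted p 0.245), where the slope was 2.05. The fit with that term called 0 of all 18882 genes. Csn2, Csn1s1, Csn1s2a and Wap had r values of 0.443 to 0.547 with Stat5a and edgeR adjusted p from 0.0608 to 0.0770, and DESeq2 called all 4. The DESeq2 fit called 593 of all 18882 genes as rising, against 350 by edgeR. Cish and Socs2, the feedback inhibitors of the pathway, were not called along Prlr, Stat5a or Elf5.

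**Figure D5:**
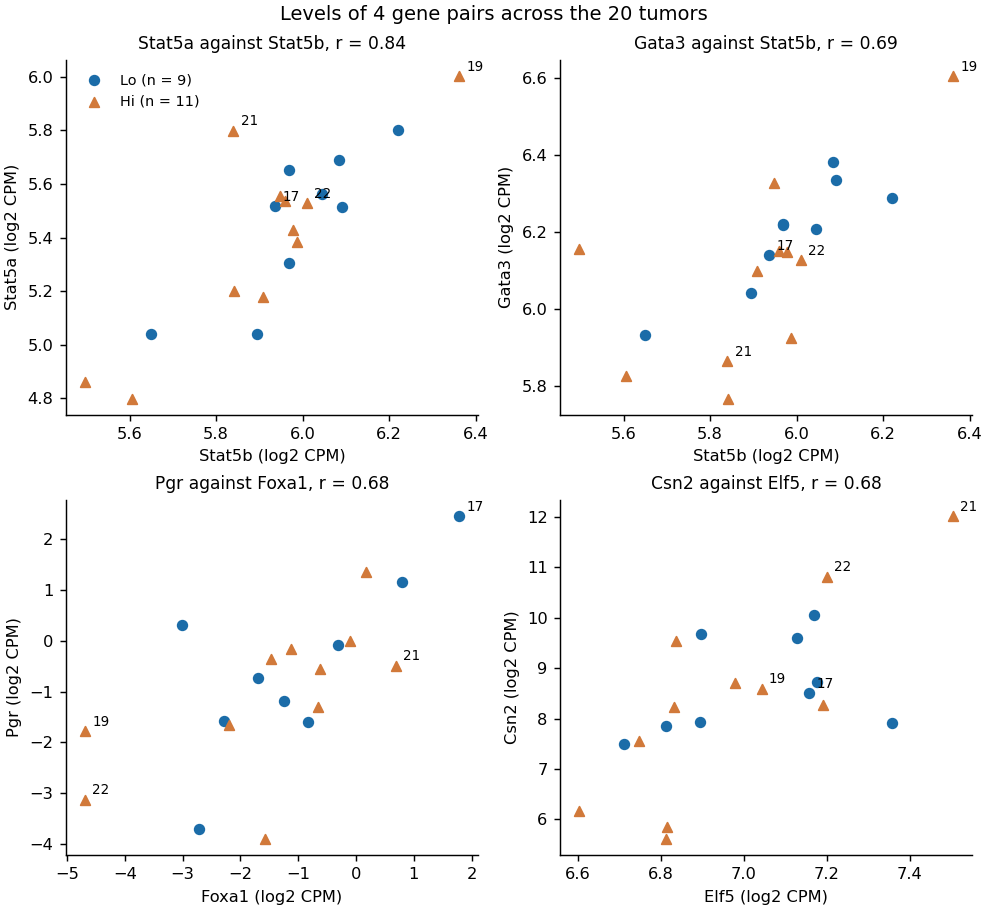
Log2 CPM of Stat5a and Gata3 against Stat5b, of Pgr against Foxa1 and of Csn2 against Elf5, with 1 point per tumor (circles Lo, triangles Hi) and tumors 17, 19, 21 and 22 numbered. Tumor 19 is at the upper end for the Stat5 genes and Gata3, tumor 17 for Pgr and Foxa1, and tumor 21 for Elf5 and Csn2.

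Genes known to respond to the estrogen receptor were followed along Esr1 and Pgr. None of the 10 tested was called along Esr1 (edgeR, 3 at an unadjusted p under 0.05), nor was any other gene in that fit (0.0% of 18882; 2122 at an unadjusted p under 0.05; DESeq2 called 43 in the positive and 39 in the negative direction, limma-trend 0). None of the 10 was called by DESeq2 or limma-trend either. Their median r with Esr1 was 0.0151, beside 0.00355 for all genes. Xbp1, a factor of secretory cells, had an r of 0.455 with Esr1 and that of Ccnd1, the cyclin D1 gene, was -0.554, neither past the test (edgeR adjusted p 0.395 and 0.243). Along Pgr, likewise none of the 10 was called by edgeR (0.0053% of all genes called) or limma-trend, whereas DESeq2 called Areg (10 rising and 0 falling of all genes in its fit). An unadjusted p under 0.05 was met in the edgeR fit by 2 of the 10 and by 704 of all 18882 genes. Areg encodes amphiregulin, a ligand of the epidermal growth factor receptor that the estrogen receptor induces in the gland. Its r with Pgr was 0.671 (permutation p = 0.00125, edgeR adjusted p 0.116), and its level ran from 0.563 CPM in tumor 19 to 13.9 CPM in tumor 17.

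The other lists gave few calls. In the edgeR fits, an unadjusted p under 0.05 was met by 2122 of all 18882 genes along Esr1 and by 704 along Pgr. The numbers were 2849 along Prlr, 2057 along Elf5, 2598 along Kit, 2484 along Gata3 and 603 along Foxa1. Of the 2 progesterone receptor targets tested, Wnt4 had an r of 0.512 with Pgr and Fkbp5 had 0.0412, and neither was called (edgeR; 1 at an unadjusted p under 0.05). The hormone-sensing luminal genes Prom1, Ly6a, Cited1 and Tbx3 (4 tested along Esr1 and along Pgr), the 8 cofactors of nuclear receptors and the 8 other nuclear receptors along Esr1, and the 6 genes of prolactin receptor signaling along Prlr held no call by edgeR, DESeq2 or limma-trend, with 1, 1, 1, 2 and 2 genes at an unadjusted p under 0.05. The second estrogen receptor gene, Esr2, was at a mean of 0.13 CPM and was not tested. Of the 6 luminal progenitor genes, Cd14 alone rose with Elf5 (0.244% of all genes called in this direction; slope 1.71, SE 0.371, edgeR adjusted p 0.0491, r = 0.650). This call was lost without tumor 17, 19, 21 or 22 and was not made by limma-trend. None of them was called along Kit by edgeR (2 at an unadjusted p under 0.05), where 0.53% of all genes were, and DESeq2 called Ehf (297 rising and 122 falling of all genes in its fit). Of the 8 other luminal transcription factors, none was called along Gata3 (edgeR, 4 at an unadjusted p under 0.05) or along Foxa1 (0.0424% of all genes called; 0 at an unadjusted p under 0.05), while DESeq2 called Spdef, which fell with Gata3 (r = -0.574). The DESeq2 fit on Gata3 called 279 of all genes as rising and 291 as falling. The Kit ligand gene Kitl had an r of 0.484 with Kit. It was not called, and neither were the other 4 genes of Kit signaling by edgeR (3 of 5 at an unadjusted p under 0.05), whereas DESeq2 and limma-trend called the kinase gene Lyn (r = 0.694, edgeR adjusted p 0.0524).

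For each gene, the 3 genes with the most alike pattern were taken by Pearson's r of log2 CPM over the 20 tumors, among 13825 genes with a mean of at least 1 log2 CPM. These values are the highest of many and carry no test. Esr1 was close to Palmd (0.813) and Lrrfip1 (0.759), and Pgr was closest to the homeobox gene Meox1 (0.690), Areg (0.671) and the cytokine gene Il33 (0.670). Foxa1 was closest to Areg (0.843), the amino acid transporter Slc7a2 (0.785) and Gulp1 (0.691), so that Areg stood near both Pgr and Foxa1. Greb1 was closest to Ogn (0.782), Col3a1 (0.767) and Igfbp6 (0.755), of which Ogn and Col3a1 are matrix genes of connective tissue.

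Prlr was closest to Gm21973 (0.876), whose annotated gene overlaps Prlr on the same strand and may hold the same reads, Fubp3 (0.828) and Dnajc22 (0.828). Stat5a was closest to Mob3b (0.944), Epb4.1l4b (0.871) and Ubap1 (0.868), which all lie on chromosome 4, and Stat5b to the GATA-type repressor gene Trps1 (0.846), Acad9 (0.839) and C530043A13Rik (0.820). For Gata3 these were Kank4 (0.902) and Eya3 (0.833), both also on chromosome 4, and the aminopeptidase gene Anpep (0.858). Elf5 was closest to Tgfb3 (0.805), RP24-299H18.2 (0.796) and 6330416G13Rik (0.783), and Kit to the glycosyltransferase gene Galnt15 (0.847), Otud1 (0.843) and the claudin gene Cldn23 (0.841).

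Markers of other cell types moved with some of the genes. Over 140 relations of the 10 genes with marker scores and library measures, 17 had an unadjusted permutation p under 0.05 and 2 were left after Benjamini-Hochberg adjustment over the 140. Greb1 followed the fibroblast score (r = 0.710, permutation p = 0.00035, adjusted p 0.0434, rho = 0.710), with 0.695 within the Lo tumors, 0.771 within the Hi tumors and 0.632 without the 2 farthest tumors. All 6 fibroblast markers were present in all tumors, and their sum ran from 600.3 to 2267 CPM in the Lo and from 671.4 to 1829 CPM in the Hi tumors, with tumor 14 the highest. Pgr had an r of 0.514 with the fibroblast score (permutation p = 0.0200, adjusted p 0.269), which was 0.235 without the 2 farthest tumors. Stat5a followed the leukocyte score (r = 0.692, permutation p = 0.00062, adjusted p 0.0434, rho = 0.695), with 0.812 within the Lo, 0.654 within the Hi tumors and 0.665 without the 2 farthest tumors. The 4 leukocyte genes summed to 59.7 to 104 CPM in the Lo and 70.2 to 101.8 CPM in the Hi tumors. Stat5b, Gata3, Elf5 and Kit had r values of 0.522 to 0.554 with the same score. With the leukocyte score as a term, none of the 45 pairs was called. Over all 18882 genes, the rising and falling calls were then 0 and 0 along Stat5a (350 and 59 without the term) and 1 and 1 along Stat5b (174 and 71). They were 2 and 5 along Gata3 (82 and 77) and 11 and 15 along Kit (77 and 23). At a fixed score r was 0.775 for Stat5a with Stat5b, 0.566 for Stat5b with Gata3 and 0.569 for Stat5b with Kit. It was 0.364 for Stat5a with Gata3, 0.294 for Stat5a with Kit and 0.431 for Gata3 with Kit. The part of these cells in the levels was not tested.

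Kit is also a marker of mast cells and melanocytes. The 7 mast cell genes summed to 0.626 to 7.56 CPM, with Ms4a2 and Fcer1a at a mean under 0.1 CPM, and the 5 melanocyte genes to 3.23 to 6.19 CPM, with Dct and Tyrp1 under 0.1 CPM, where Kit itself was at 375.7 ± 47.3 CPM (SD, n = 9) in the Lo and 380.9 ± 58.7 CPM (SD, n = 11) in the Hi tumors. The r of Kit with the mast cell score was -0.0864 (permutation p = 0.717). Gata3 is also expressed by T cells, whose 6 markers summed to 1.23 to 5.24 CPM. As a measure of chromosome content, the median deviation of the genes of each chromosome was taken. Prlr had an r of 0.566 with that of chromosome 15 (474 genes), which was highest in tumor 21 at 0.21 log2 units. For the other genes r with their own chromosome ran from -0.397 (Pgr) to 0.395 (Esr1).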

How the data were processed

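RNA sequencing of 20 breast tumors was analysed from the gene counts that the authors deposited. Per the labels and the study's methods, libraries were made from mRNA with TruSeq kits, read in pairs, trimmed and aligned to mm10 (the build used here). The submitters' processing notes name TopHat2 2.0.12 and featureCounts 1.4.4; the counting annotation, the strand setting and the treatment of reads with several matches are not given in the sources used here. Gene positions are those of the count table, and strands, overlaps and exons came from GENCODE M21.

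Counts were tested as deposited with the quasi-likelihood test of edgeR 4.0.16 (TMM normalization, filterByExpr with a minimum count of 10, Benjamini-Hochberg adjustment over all genes tested, threshold 0.05), for Lo against Hi and for the slope on the centred log2 CPM (prior count 2) of each of the 10 genes. RPKM was computed from the counts, the coding length in the table and the TMM effective library size. Correlations used 100000 two-sided permutations of the tumors. DESeq2 1.42.0 and limma 3.58.1, other filters, terms and left-out tumors were alternatives; those without tumor 1, 17, 19, 21 or 22 were added after seeing the data, as was the count of list genes under each setting. The genes and lists were chosen with earlier results of these data known, and the scripts were tested on simulated counts. Named were the 10 genes, the 3 other genes of highest Pearson's r with each (mean log2 CPM of at least 1), up to 3 called genes of largest r in each list and fit or, with none called, the 2 of highest mean expression, the ribosomal RNA locus, and markers that a result moves with. Wap, Ehf, Lyn, Spdef, Areg in its list, Cish and Socs2 and the genes of the closing section were named after their values were seen. Some genes that the rule names are not reported here. Each tumor is from a separate mouse. No 2 libraries agreed within counting noise. Total counts of 38765682 to 65465755 per tumor limit the precision of Pgr, Foxa1 and Greb1, and limits from 3 counts cover counting error only.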

Additional observations from a re-analysis of the deposited data

Results flagged for a closer look

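In the 9 Lo tumors, the gap of the extreme tumor to its nearest neighbor was compared with the range by Dixon's criterion, separately for each of the 10 genes. Chance picks out about 1 in 20 groups, or 0.5 of 10, and 3 were picked out on the RPKM scale. These genes are skewed, and Pgr and Foxa1 had an r of 0.682 over the 20 tumors, so they do not count as separate hits. Tumor 17 was far above the other Lo tumors in Pgr (0.638 RPKM) and in Foxa1 (1.07 RPKM), and tumor 1 in Greb1 (0.244 RPKM). In tumor 17 Areg was also the highest of all tumors at 13.9 CPM, and Esr1 was at 0.610 RPKM, below its median. On the log2 CPM scale, a check added after seeing the data, none of these 3 was picked out (gap over range 0.211 for Pgr, 0.205 for Foxa1 and 0.269 for Greb1), and of the 10 genes 1 was, Esr1, for its low level in tumor 4 (0.511). The group of 11 Hi tumors was too large for this criterion.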

How the results depend on the processing

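For Lo against Hi, the count of called genes (0) became 1 with DESeq2 and 1 without a filter on low counts, and stayed at 0 in the other 5 settings. Fold changes of the 10 genes kept their sign in 65 of 70 refits. The exceptions were Prlr (-0.025 with the replicate block, -0.052 without tumor 17), Foxa1 (-0.32 with the replicate block, -0.10 without tumor 17) and Kit (0.0094 with the replicate block), none of them called. The Pgr value (0.92) was 0.22 with the replicate block and 0.13 without tumor 17. The labels do not say whether the replicate numbers that both groups share pair the tumors. The correlation of deviations in same-numbered tumors ran from -0.418 to 0.208. It was not compared with that of differently numbered tumors, so a pairing was not tested. With that replicate block the Lo against Hi count was 0, no member pair was called (0) and 1 list gene was. Of the 45 pairs, 2 were called, against 5 with DESeq2, 3 without tumor 1 and 3 without tumor 21. The count was 2 with a prior count of 0.5 and 1 with limma-trend, without a filter, without the ribosomal RNA locus, with the Lo or Hi label, the epithelial score, the fibroblast score or the length slope (the trend of expression with gene length in a tumor) as a term, and without tumor 17 or 22. It was 0 with the leukocyte score as a term, without the 2 tumors farthest from the median and without tumor 19. Stat5a with Stat5b was the pair kept wherever 1 was called. Without tumor 19 the genes called as rising and falling along Kit were 1 and 0 (77 and 23 with it). Without tumor 21 they were 5 and 4 along Elf5 (46 and 5), and without tumor 1 none along Greb1 (5 and 0). Over the lists, 6 genes were called, against 14 with DESeq2, 2 with limma-trend, 3 with the length slope, 1 with the epithelial score, 0 with the leukocyte score and 2 without tumor 21 or without tumor 22. The cause was not tested. TPM in place of RPKM raised levels (Kit to 138.5, Gata3 to 38.2). Counts of a few reads limit Foxa1, Pgr and Greb1.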

Other observations

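Receptors and milk protein genes around these 10 genes differed widely in level. The glucocorticoid receptor gene Nr3c1 was at 10.96 RPKM on average and the vitamin D receptor gene Vdr at 11.4 RPKM, beside 0.730 RPKM for Esr1. Vdr ran from 26.8 over a median of 60.6 to 153.2 CPM, with tumor 21 the highest. Among milk genes, Csn3 (kappa-casein) was at 7840 ± 1141 CPM (SD, n = 20), whereas Wap was at 3.03 ± 5.51 CPM (SD, n = 20). Csn3 ran from 5753 to 9857 CPM, and its r with Prlr was -0.400 (edgeR adjusted p 0.449). The sum of 4 skeletal muscle genes ran from 1.23 to 431.5 CPM in the Lo and from 0.854 to 737.5 CPM in the Hi tumors, with a median of 3.03 CPM and tumor 8 the highest, and Greb1 had an r of 0.647 with that score (permutation p = 0.00198, adjusted p 0.0924 over the 140 relations). The part of muscle RNA in the Greb1 level was not tested.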
